A study of Mus musculus domesticus and Mus musculus domesticus x Mus musculus castaneus and Mus musculus castaneus with 27 samples.

Results

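CAS129 stem cells, derived from a cross of the castaneus subspecies with strain 129, were compared with stem cells of the laboratory strain BL6. The members are 4 of the 27 samples of the series: the 2 CAS129 and the 2 BL6 pluripotent stem cell (PSC) libraries, set against each other by name. BL6 is C57BL/6J, and CAS129 is labelled a first-generation hybrid of CAST/EiJ (CAST) and 129S6/SvEv (129), with no statement of which strain was the mother. No treatment, passage, sex or clone is given for these 4 libraries, and all are of undifferentiated cells. 16 other libraries were used beside them: 2 CAST PSC and 14 motor neuron (MN) libraries, the latter 7 of BL6, 1 of CAST, 2 of 129, 3 of CAS129 and 1 labelled 129CAS, which is also a first-generation hybrid of the subspecies and is counted with CAS129 only where all 4 hybrid MN libraries are named. No stem cell library of the 129 parent was used here, so a difference between CAS129 and BL6 can come from either parental genome, the cross or the line, and these cannot be told apart.

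Mouse pluripotent stem cells move between a naive state, like that of the cells inside the early embryo, and a formative or primed state that comes before germ layers form. FGF signals through the kinase ERK push cells out of the naive state and switch on a set of genes, several of which encode brakes on the same pathway. Naive cells keep little new DNA methylation, and genes such as Zfp42 and Dppa3 are read as naive markers, whereas Dnmt3a, Lin28a and Pou3f1 rise on leaving it.

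The libraries held 5.51 M and 4.5 M counts in CAS129 and 12.99 M and 13.62 M in BL6. Levels below are CPM, counts per 1 M of a library size scaled with TMM factors, and each difference is CAS129 minus BL6 on the log2 scale with its standard error (SE) and Benjamini-Hochberg adjusted p from edgeR's quasi-likelihood test of the 2 CAS129 against the 2 BL6 libraries. The fit holds 6 PSC libraries, so the 2 CAST libraries also set the spread that the test uses. A gene is called at an adjusted p below 0.05. In simulated data of this design, 7.5% of 2-fold, 47.8% of 4-fold and 93.9% of 8-fold changes were called, so a gene that was not called may still differ by severalfold. Nothing in the labels states that replicates were separate cultures, so each p-value reflects the scatter among these 6 libraries alone, which may be technical. Of 13795 genes tested, 907 had 0 counts in both CAS129 PSC libraries. They were set apart and stay out of every count of called genes, since 780 of them (86.0%) were also at 0 in all 4 hybrid MN libraries, against 0.504% of the 12888 genes not set apart.

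Among those 12888 genes, 2819 (21.9%) were called, 1203 higher (9.33%) and 1616 lower (12.5%) in CAS129, and with the genes set apart the share was 25.8% of 13795. The values of both CAS129 libraries lay outside those of both BL6 libraries for 7717 genes (59.9%). The median difference over all genes was -0.0001 with TMM and 0.123 with upper-quartile scaling. Without CAS129 replicate 1, 1543 genes were called, and without CAS129 replicate 2, 1523. With the 4 BL6 and CAS129 libraries alone, 2185 genes were called, and 12 of the 108 called genes named in the analysis lost their call. The 2 BL6 libraries stood far apart from each other, with a chi-square per degree of freedom of 114.96 over 14238 genes, against 24.61 over 12276 genes for the CAS129 pair. The share of mitochondrial counts was 0.384% in BL6 replicate 1 and 0.00821% in replicate 2. In bulk libraries such as these, fewer cells of a kind and less RNA per cell cannot be told apart.

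**Figure D1:**
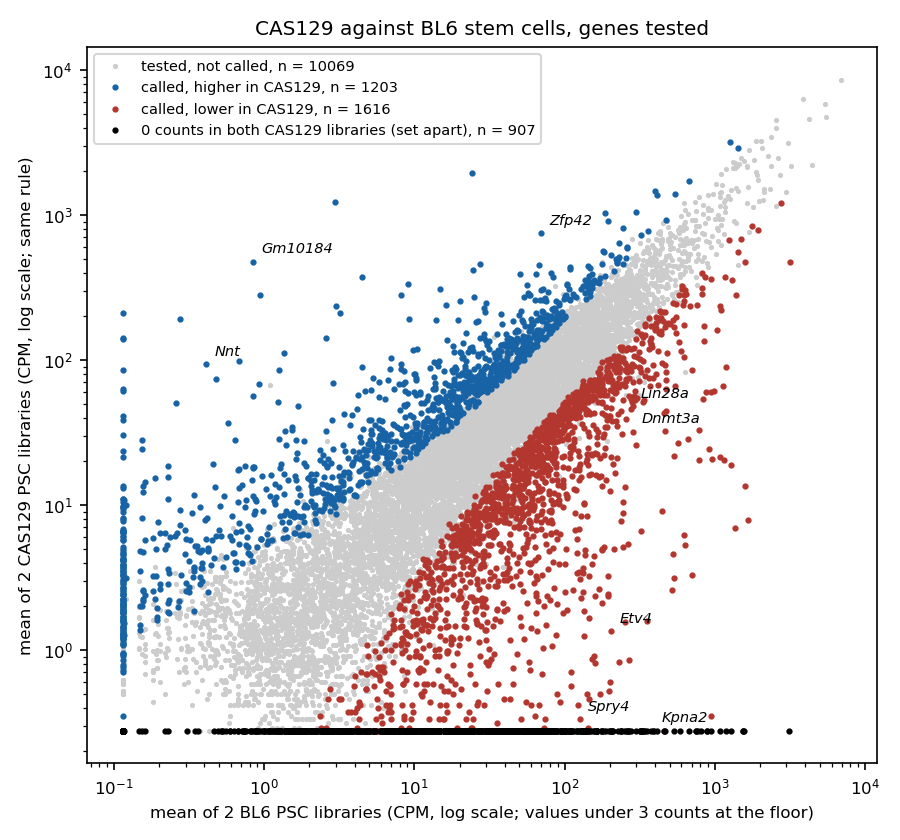
Mean level in the 2 CAS129 against the mean in the 2 BL6 stem cell libraries (CPM, both axes log scale), 1 point per gene tested; genes at under 3 counts in a group are drawn at that floor. The 907 black points along the lower edge had 0 counts in CAS129, and they reach a BL6 mean of 3097 CPM.

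The label was checked first against genes that define pluripotent cells. Pou5f1, the factor without which pluripotency is lost, was at 696 and 1551 CPM in BL6 and at 817 and 1046 CPM in CAS129. Its groups overlap, and the difference of -0.27 (SE 0.42, adjusted p = 0.68) did not pass the test. Sox2, its partner on DNA, was at 606 and 657 CPM in BL6 and at 426 and 450 CPM in CAS129 (log2 -0.53, SE 0.28, adjusted p = 0.21). Dcx, a marker of young neurons, had 0 counts in all 4 libraries, and Ptprc, a blood cell marker, had 15 and 0 counts in BL6 and 1 and 0 in CAS129. Other pan-neuronal genes, described below, were detected. Ina was at 103 and 73.2 CPM in BL6 and at 21.1 and 15.4 CPM in CAS129, and Sox11 was at 89.1 and 57.9 CPM in BL6. All 4 libraries thus carried the pluripotency factors at high levels.

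Naive pluripotency genes did not move one way. Of 25 tested, 6 were higher, 4 were lower and 15 were not called, beside 9.33% higher and 12.5% lower over all genes, and the list's median difference was -0.186. The 6 that rose were Zfp42, Dppa3, Prdm14, Tcl1, Pecam1 and Tfcp2l1. Zfp42, a zinc-finger factor also called Rex1, was at 56.6 and 82.3 CPM in BL6 and at 784 and 707 CPM in CAS129. Both hybrid libraries lay far above both BL6 libraries, a 10.7-fold difference (log2 3.42, SE 0.33, adjusted p = 0.000144). Dppa3, a maternal factor that protects DNA from methylation, was at 31.1 and 27.7 CPM in BL6 and at 233 and 195 CPM in CAS129 (log2 2.86, SE 0.31, adjusted p = 0.000274). Prdm14, a repressor of FGF signalling and of the new DNA methyltransferases, was at 16.5 and 36.4 CPM in BL6 and at 171 and 200 CPM in CAS129 (log2 2.81, SE 0.42, adjusted p = 0.00171). The values of these 3 genes did not overlap between the groups.

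Tcl1, an activator of the kinase Akt, rose by a log2 of 2.39, the adhesion molecule Pecam1 by 2.29 and the transcription factor Tfcp2l1 by 2.22, with adjusted p from 0.00228 to 0.0033. Gbx2, a homeobox factor, went the other way: 32.4 and 75.3 CPM in BL6 against 5.14 and 4.16 CPM in CAS129 (log2 -3.52, SE 0.53, adjusted p = 0.00168). Zfp57, which keeps methylation at imprinted regions, fell by 2.02 (adjusted p = 0.00214) and the chromatin protein Utf1 by 1.52 (adjusted p = 0.0181). The call of Utf1 was lost without CAS129 replicate 1 or without CAS129 replicate 2, with an adjusted p of up to 0.108. The 15 members not called ran from -0.84 for Klf4 to 1.91 for Tbx3 (adjusted p = 0.0543), a T-box factor at 88.3 and 83.3 CPM in BL6 and at 468 and 176 CPM in CAS129. They include Esrrb (-0.38), Fgf4 (-0.24) and Tdgf1 (-0.19), so most of the list was not called.

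Of the 25 naive genes, 2 were called higher and 3 lower in CAS129 than in CAST stem cells. Zfp42 was at 542 and 474 CPM in CAST, and CAS129 minus CAST was 0.55 (adjusted p = 0.29, edgeR). Gbx2 was at 9.53 and 6.16 CPM in CAST, with CAS129 minus CAST at -0.75 (adjusted p = 0.39). The comparisons with BL6 and with CAST use the same 2 CAS129 libraries and are given side by side only. Over all genes, 1215 (9.43%) were called between CAS129 and CAST.

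**Figure D2:**
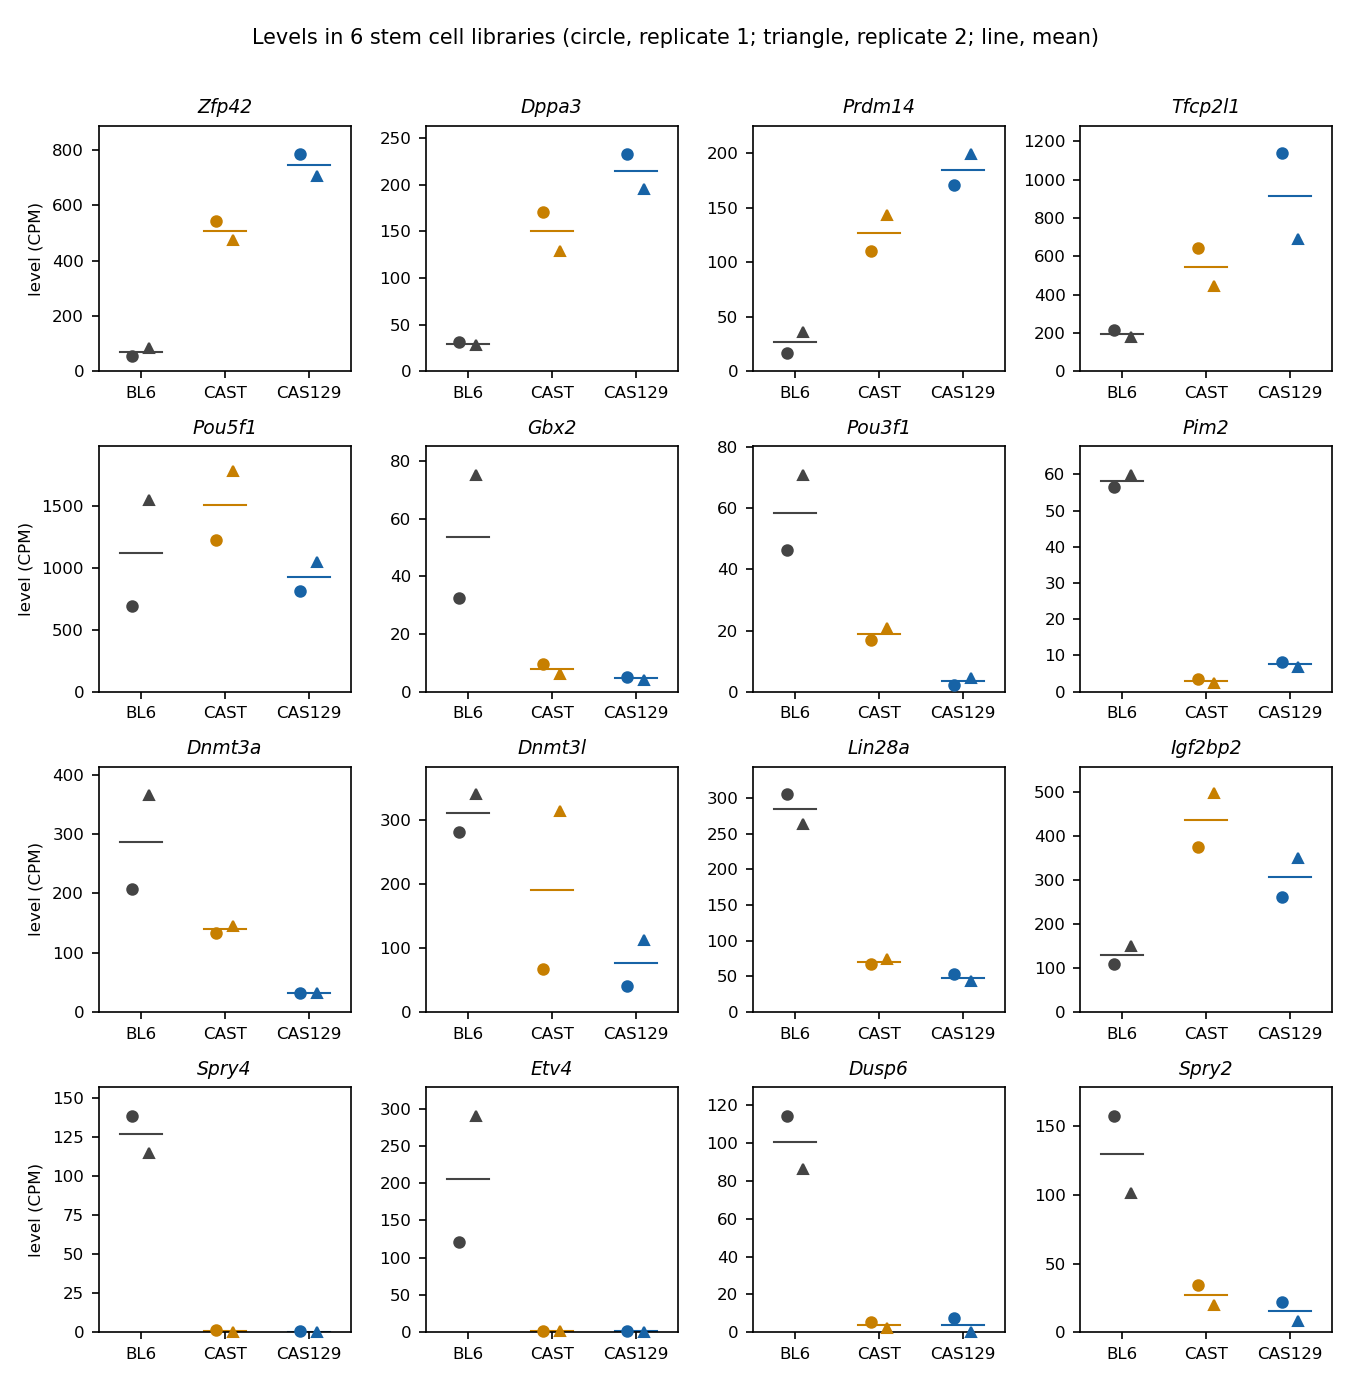
Levels (CPM, each axis from 0) of 16 genes in the 2 BL6, 2 CAST and 2 CAS129 stem cell libraries; each point is 1 library and each line a group mean. Zfp42 is at 784 and 707 CPM in CAS129 and at 56.6 and 82.3 CPM in BL6, and Spry4 and Etv4 lie under 2 CPM in CAS129 and in CAST.

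Of 16 formative and primed genes tested, 5 were lower in CAS129, 1 was higher and 10 were not called, beside 12.5% lower over all genes. The median difference was -1.26, and among the 7 members that overlap no other gene and share few windows it was -0.448, with 2 lower. Pou3f1, a POU factor of cells leaving the naive state, was at 46.3 and 70.9 CPM in BL6 and at 2.32 and 4.57 CPM in CAS129 (log2 -4.10, SE 0.47, adjusted p = 0.000375). CAST lay between them, at 17.1 and 21 CPM, and CAS129 was below CAST too (log2 -2.48, adjusted p = 0.0065). Pim2, a survival kinase, fell from 56.6 and 59.9 CPM to 8.3 and 6.86 CPM (log2 -2.94, SE 0.38, adjusted p = 0.00072). Grhl2, a factor of epithelial cells, fell by 2.05, the SOX factor Sox4 fell by 1.81 and Sox3 fell by 1.75. These last 3 calls were less firm: Grhl2 was lost without CAS129 replicate 2 or BL6 replicate 2 (adjusted p up to 0.102), Sox4 without CAS129 replicate 2 (adjusted p = 0.0942) and Sox3 in 6 of 16 alternatives (adjusted p up to 0.122). Without CAS129 replicate 2, 2 members were called lower.

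The formative gene that rose was Foxd3, a forkhead factor, which had 0 counts in both BL6 libraries against 84.5 and 38.2 CPM in CAS129 and 54.4 and 20.4 CPM in CAST. Against a floor of 3 counts over the BL6 pair, it was at least 556-fold higher in CAS129. Foxd3 overlaps another gene on its own strand, Gm23366, and the sources used here do not name the annotation behind the counts. Otx2, which starts the exit from the naive state, was at 32.6 and 31.1 CPM in BL6 and at 13.8 and 31.8 CPM in CAS129 (log2 -0.49, adjusted p = 0.425). Nodal, a ligand of primed cells, was at 82.4 and 83.9 CPM in BL6 and at 183 and 75 CPM in CAS129 (log2 0.63, adjusted p = 0.382). The other formative genes of the list not called reached -2.27, so the lower median does not rest on the called members alone.

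All FGF and ERK genes that were called were lower in CAS129: of 18 tested, 9 were lower and 9 were not called, with a median difference of -2.40. The share called lower over all genes was 12.5%. The values of 13 of the 18 did not overlap between the groups and were all lower in CAS129, beside 59.9% of all genes that did not overlap in either direction. The brakes come first. Spry4, a Sprouty protein that blocks the path from FGF receptors to ERK, was at 138 and 115 CPM in BL6 and at 0.664 and 0 CPM in CAS129 (log2 -8.39, SE 0.98, adjusted p = 0.00041). Only 4 counts of Spry4 were found in the hybrid pair. Spry2 fell from 158 and 102 CPM to 22.4 and 8.52 CPM (log2 -3.06, SE 0.52, adjusted p = 0.0035). Spred1, a relative of the Sprouty proteins, fell from 112 and 64.9 CPM to 9.29 and 23.5 CPM (log2 -2.44, SE 0.49, adjusted p = 0.00766).

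Dusp6, a phosphatase that switches off ERK, was at 114 and 86.2 CPM in BL6 and at 7.63 and 0.208 CPM in CAS129 (log2 -4.62, SE 0.97, adjusted p = 0.00924). Both hybrid values were below both BL6 values, and the hybrid libraries also stood apart from each other. Dusp5, a nuclear ERK phosphatase, fell by 3.30 (SE 0.58, adjusted p = 0.00414). Among the targets, Etv4, an ETS factor switched on by FGF, was at 120 and 290 CPM in BL6 and at 1.66 and 1.04 CPM in CAS129. The groups of Etv4 did not overlap (log2 -7.21, SE 0.58, adjusted p = 5.88e-05). Fosl1, a partner in the AP-1 factor, fell by 3.58 (adjusted p = 0.00444), and the receptor Fgfr2 fell from 24.6 and 37.4 CPM to 7.14 and 10.2 CPM (log2 -1.84, SE 0.40, adjusted p = 0.0105). Klhl13, a substrate adaptor of a ubiquitin ligase encoded on chromosome X, fell by 1.80 (adjusted p = 0.00819). The calls of Fgfr2 and Klhl13 were lost without CAS129 replicate 1, at adjusted p = 0.0691 and 0.0519.

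Etv5, the close relative of Etv4, did not follow it: 394 and 495 CPM in BL6 against 721 and 471 CPM in CAS129 (log2 0.42, SE 0.32, adjusted p = 0.378). Dusp9, an ERK phosphatase on chromosome X, was at 170 and 427 CPM in BL6 and at 161 and 235 CPM in CAS129 (log2 -0.60, adjusted p = 0.374). The immediate-early genes, which answer ERK within minutes, split the replicates rather than the genotypes. Fos was at 613 and 15.8 CPM in BL6 and at 96.8 and 17.4 CPM in CAS129. Egr1 was at 573 and 21.1 CPM in BL6 and at 114 and 0 CPM in CAS129. Neither was called, nor were Dusp4, Spry1, Etv1, Myc and Fgfr1, and for Fos and Egr1 replicate 1 was the higher library in both genotypes. The 9 lower calls stood without BL6 replicate 1 and without BL6 replicate 2, with 9 called each time. The part of handling before lysis in these values was not tested.

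In CAST the strongest of these genes were low as well. Spry4 was at 1.76 and 0.131 CPM and Etv4 at 1.65 and 1.7 CPM, while CAS129 minus CAST was -1.39 (adjusted p = 0.5) and -0.29 (adjusted p = 0.8, edgeR). Hybrid motor neurons carried both genes. Spry4 was at 46.3, 52.2 and 38.5 CPM in CAS129 MN, beside a BL6 MN range of 40.7 to 54.7 CPM with a median of 45 CPM, so the groups overlapped. Etv4 was at 43.9, 38.5 and 31.3 CPM in CAS129 MN and ran from 23.9 to 37.8 CPM in BL6 MN with a median of 26.5 CPM. Both genes thus had counts in hybrid MN libraries, and the cause of their low PSC levels was not tested. The difference between CAS129 and BL6 was higher in MN than in PSC by a log2 of 8.54 for Spry4 (edgeR fit of all 20 libraries, adjusted p = 7.1e-07) and by 7.80 for Etv4 (adjusted p = 7.4e-08).

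Of 13 genes of DNA methylation and its removal, 2 were lower in CAS129, Dnmt3a and Zfp57, and 11 were not called, beside 12.5% lower over all genes. Dnmt3a, which sets new methylation, was at 207 and 366 CPM in BL6 and at 31.9 and 32.2 CPM in CAS129. The groups did not overlap, an 8.94-fold difference of means (log2 -3.16, SE 0.36, adjusted p = 0.000376). CAST was at 133 and 146 CPM, and CAS129 was also below CAST (log2 -2.12, adjusted p = 0.0036). Dnmt3l, the cofactor of the new methyltransferases, was at 281 and 340 CPM in BL6 and at 40.3 and 112 CPM in CAS129, which missed the threshold (log2 -2.03, SE 0.71, adjusted p = 0.0679). Dnmt1, which copies methylation after replication, was at 458 and 520 CPM in BL6 and at 785 and 580 CPM in CAS129 (log2 0.48, SE 0.29, adjusted p = 0.267). Uhrf1, its guide to new DNA, was at 0.47 (adjusted p = 0.282). The oxidases that remove marks, Tet1 and Tet2, were at -0.32 and 0.43 and were not called. The list's median was -0.512.

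Lin28a, an RNA-binding protein that blocks the let-7 microRNAs, was at 305 and 263 CPM in BL6 and at 53.6 and 42.8 CPM in CAS129, 5.90-fold lower (log2 -2.56, SE 0.30, adjusted p = 0.000406). CAST was at 67.8 and 73.6 CPM, and CAS129 minus CAST was -0.55 (adjusted p = 0.26). Its paralog Lin28b fell from 49.5 and 18.6 CPM to 6.8 and 9.56 CPM (log2 -2.06, SE 0.51, adjusted p = 0.0193), a call lost without BL6 replicate 1 or without either CAS129 library (adjusted p up to 0.11). Igf2bp2, an RNA-binding protein and let-7 target, rose from 110 and 149 CPM to 261 and 351 CPM (log2 1.24, SE 0.32, adjusted p = 0.0238), a call lost in the same 3 fits (adjusted p up to 0.131). Hmga1, a chromatin protein, is among the genes set apart and is described with them. Lin28a and Dnmt3a each overlap an exon of another gene on the opposite strand, and the sources used here do not say whether the counting used strand.

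The positions of the leading genes are given on GRCm38 and cover the whole annotated gene. Lin28a (ENSMUSG00000050966) is on chromosome 4 from 134003330 to 134018841 on the minus strand. Dnmt3a (ENSMUSG00000020661) is on chromosome 12 from 3806007 to 3914443 on the plus strand. Etv4 (ENSMUSG00000017724) is on chromosome 11 from 101769742 to 101785371 on the minus strand. Zfp42 (ENSMUSG00000051176) is on chromosome 8 from 43295063 to 43306980 on the minus strand.

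Of 9 Nodal and BMP genes, 3 were lower, Id3, Id1 and Bmp4, and 6 were not called. The shares over all genes were 9.33% higher and 12.5% lower. Id3, an inhibitor of helix-loop-helix factors and a direct BMP target, was at 57.5 and 38.9 CPM in BL6 and at 0.83 and 1.04 CPM in CAS129 (log2 -5.68, SE 0.94, adjusted p = 0.00294). Id1 fell from 17.6 and 43.9 CPM to 3.48 and 2.08 CPM (log2 -3.45, SE 0.57, adjusted p = 0.00291). The ligand Bmp4 was at 8.64 and 41.5 CPM in BL6 and at 1.82 and 2.49 CPM in CAS129 (log2 -3.54, SE 0.77, adjusted p = 0.011), and its call was lost without CAS129 replicate 1 (adjusted p = 0.0735). CAS129 was also below CAST for Id3 (log2 -4.74, adjusted p = 0.0094) and Id1 (log2 -3.05, adjusted p = 0.0071). Mean Id3 in MN was 4.82 CPM in CAS129, 172 CPM in BL6 and 80 CPM in 129. The single 129CAS and CAST MN libraries held 0.99 and 69.8 CPM. Which step gave these low hybrid counts of Id3 was not tested. Of the 9 genes, 3 were called higher and 3 lower in CAS129 MN. Of 10 Wnt target genes, the only one called was T, also named Brachyury, a factor of the primitive streak, which rose from 1.76 and 0.645 CPM to 8.3 and 14.6 CPM (log2 3.22, SE 0.71, adjusted p = 0.0121). It was not called without CAS129 replicate 2 or without BL6 replicate 2 (adjusted p up to 0.0666).

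Genes of the germ line that promoter methylation keeps silent in body cells were described next. Of 15 tested, 3 were higher and 1 lower, beside 9.33% higher and 12.5% lower over all genes, with a median of 0.287. Dazl, an RNA-binding protein of germ cells, was at 14.9 and 3.47 CPM in BL6 and at 93.1 and 288 CPM in CAS129 (log2 4.37, SE 0.83, adjusted p = 0.00598). CAST held more still, at 371 and 818 CPM. In motor neurons Dazl was at 1.46, 1.83 and 2.12 CPM in CAS129 and from 0.217 to 6.11 CPM in BL6, with no difference called. Tuba3b, a testis tubulin, was at 0.146 and 0.403 CPM in BL6 and at 185 and 197 CPM in CAS129 (log2 9.39, SE 0.49, adjusted p = 3.33e-05), but 29.55% of its 50-base windows also occur in other genes, mostly Tuba3a. Tex101 rose and Mael fell in the main test only weakly, with adjusted p of 0.038 and 0.0476, and both calls were lost in at least 6 alternatives.

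Imprinted genes, which are read from 1 parental copy, were called in both directions: of 23 tested, 6 were higher and 6 lower, with a median of 0.267. The shares over all genes were 9.33% higher and 12.5% lower. Meg3, a maternally expressed non-coding RNA, was at 36.7 and 12.9 CPM in BL6 and at 310 and 232 CPM in CAS129 (log2 3.45, SE 0.50, adjusted p = 0.00141). Rian and Mirg, from the same cluster on chromosome 12, rose with it, Rian from 14.9 and 1.37 CPM to 293 and 271 CPM (log2 5.10, SE 0.91, adjusted p = 0.00418) and Mirg by 4.67 (adjusted p = 0.00396). All 3 overlap small RNA genes on their own strand. In MN, Meg3 was at 574, 550 and 1290 CPM in CAS129 against 10.7 to 27.3 CPM in BL6. The parental strains were also above BL6. CAST stem cells held 163 and 159 CPM of Meg3, and mean Meg3 in 129 MN was 1461 CPM. The single CAST and 129CAS MN libraries held 1838 and 1727 CPM. Mean Rian in MN was 1224 CPM in CAS129, 50.1 CPM in BL6 and 1014 CPM in 129, with 1519 CPM in the CAST library. Plagl1, a zinc-finger factor, rose by 4.31 (adjusted p = 0.00109). Impact and Usp29 completed the 6, at 1.18 and 1.95, with adjusted p of 0.0463 and 0.0341, and lost their calls in 9 and 5 alternatives. Without CAS129 replicate 1 or BL6 replicate 2, 4 members of the list were called higher. The RNAs of the chromosome 12 cluster are not among the genes free of overlap. Among the 10 imprinted members that overlap no other gene and share few windows, the median was -0.647, with 1 higher and 3 lower.

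On the other side, Grb10, a brake on insulin signalling, fell from 350 and 251 CPM to 26.9 and 24.5 CPM (log2 -3.55, SE 0.35, adjusted p = 0.000164). Gnas, the stimulatory G protein subunit, fell from 469 and 604 CPM to 12.3 and 31.4 CPM (log2 -4.62, SE 0.53, adjusted p = 0.000374), and CAST was at 251 and 414 CPM. Mean Gnas in MN was 69.7 CPM in CAS129, 1932 CPM in BL6 and 1204 CPM in 129. The single 129CAS and CAST MN libraries held 287 and 3562 CPM. Which step gave these low hybrid counts of Gnas was not tested. H19, a non-coding RNA, fell from 166 and 283 CPM to 31 and 38.6 CPM (log2 -2.69, SE 0.36, adjusted p = 0.000981). Phlda2 and Cdkn1c, both of the distal chromosome 7 cluster and both restraints on growth, fell by 5.13 and 4.04, and Ndn fell by 3.21. Grb10 stayed low in hybrid motor neurons, at 61.5, 51.3 and 62.9 CPM against 192 to 488 CPM in BL6 MN.

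Markers of differentiated cells were counted to see what else the dishes held. Of 13 pan-neuronal genes tested, 5 were lower and 1 was higher, beside 12.5% lower and 9.33% higher over all genes, with a median of -1.14. Among the 7 members that overlap no other gene and share few windows, the median was -0.378, with 2 lower and 1 higher. Sox11, a factor of new neurons, was at 89.1 and 57.9 CPM in BL6 and at 0.166 and 0.416 CPM in CAS129. Its ratio was 268-fold, with a 95% counting interval from 91.6 to 1301 on 3 hybrid counts. Stmn2, a microtubule regulator of axons, fell from 176 and 187 CPM to 35.9 and 25.4 CPM (log2 -2.57, SE 0.31, adjusted p = 0.000483). Stmn2 was low in hybrid MN as well, at 83.3, 86.5 and 88 CPM against 342 to 1160 CPM in BL6 MN. The intermediate filament genes Nefm, Nefl and Ina fell by 4.18, 2.61 and 2.27, while the heavy neurofilament Nefh rose by 2.00 (adjusted p = 0.00392). Nefm and Nefl overlap on opposite strands, so their values are uncertain, and the call of Nefl was lost without CAS129 replicate 1 (adjusted p = 0.0571).

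Neural progenitor genes had 2 lower calls of 7, where the shares over all genes were 9.33% higher and 12.5% lower. Olig1, a factor of the ventral spinal cord, fell from 52 and 113 CPM to 0.664 and 1.46 CPM (log2 -6.30, SE 0.82, adjusted p = 0.000801). The Notch target Hes1 fell by 2.69 (adjusted p = 0.000592). Mean Hes1 in MN was 6.86 CPM in CAS129, 37.3 CPM in BL6 and 37.4 CPM in 129. The single 129CAS and CAST MN libraries held 6.68 and 25.1 CPM. Of 21 axon growth and guidance genes, 7 were lower and 2 higher, with a median of -1.26. Epha4, an ephrin receptor, rose from 7.17 and 4.43 CPM to 83.6 and 57.6 CPM (log2 3.60, SE 0.41, adjusted p = 0.000371). Crmp1 fell by 3.02, Nrp2 by 2.76, Klf6 by 2.39 and Dpysl2 by 2.13, and L1cam, Ntn1 and Basp1 were the other 3 called lower. Without CAS129 replicate 1 the calls of Crmp1 and Klf6 were lost, at adjusted p = 0.0509 and 0.0816, and 4 members of the list were called lower. Without CAS129 replicate 2, Dpysl2 was not called (adjusted p = 0.0779). L1cam was not called without either CAS129 library (adjusted p up to 0.0972). Basp1 and Ncam1, the second gene called higher, each lost their call in 8 alternatives, with adjusted p up to 0.184 and 0.144. CAST stem cells were low in Olig1, at 0 and 0.655 CPM.

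Trophoblast genes gave 2 lower calls of 9, the keratins Krt7 (log2 -5.92, adjusted p = 0.00089) and Krt8 (log2 -2.74, adjusted p = 0.00703). The counts of the lists in this paragraph stand beside 9.33% higher and 12.5% lower over all genes. Mesoderm genes gave 2 higher calls of 10, T and Gsc (log2 3.13, adjusted p = 0.00375). Endoderm genes gave 1 higher and 2 lower of 11, with Pdgfra at -2.57 (adjusted p = 0.0119), a call lost without either CAS129 library (adjusted p up to 0.0682). The other endoderm calls, Gata4 higher and Lamb1 lower, were lost in 6 and 5 alternatives, among them those without either CAS129 library (adjusted p up to 0.117 and 0.133). Fibroblast genes, which would mark feeder cells, gave 2 lower calls of 16, Twist1 and Dcn, a share near that of all genes, and the call of Dcn was lost in 9 of 16 alternatives (adjusted p up to 0.194). Their summed level was 6101 and 2644 CPM in BL6 and 6521 and 4122 CPM in CAS129, with replicate 1 the higher library in both genotypes. Col1a1, a collagen, shows the same order, at 1087 and 206 CPM in BL6 and at 772 and 187 CPM in CAS129. None of the 4 blood genes tested was called.

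**Figure D3:**
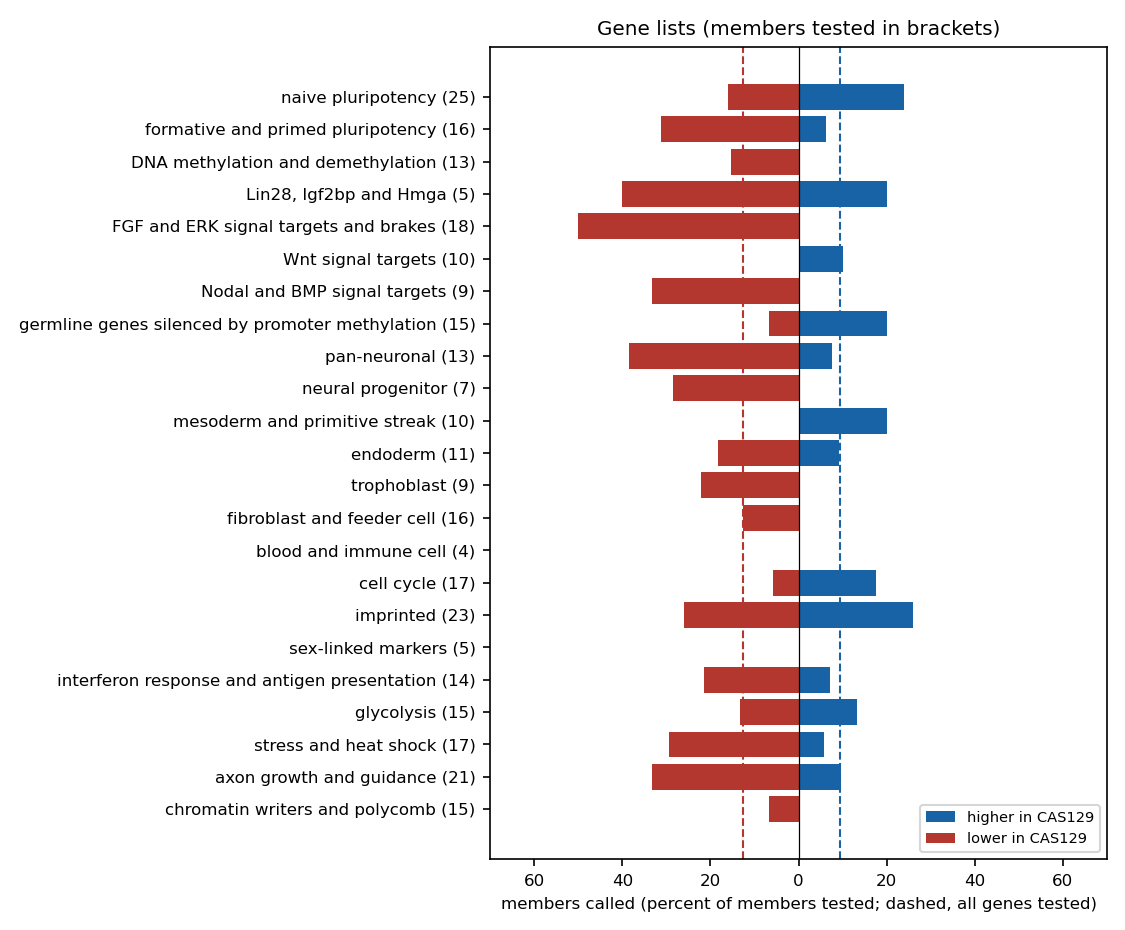
Percent of tested members called higher (right) or lower (left) in CAS129 than in BL6 stem cells, for each gene list, with the number of members tested in brackets and dashed lines at the 9.33% and 12.5% of all genes. The FGF and ERK list has the longest bar on the lower side, 9 of 18, and the imprinted list has 6 of 23 on each side.

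Of 17 stress and heat shock genes tested, 5 were lower and 1 higher, with a median of -0.807. The shares over all genes were 12.5% lower and 9.33% higher. Slc7a11, the cystine importer that feeds glutathione synthesis, was at 1.32 and 0.564 CPM in BL6 and at 342 and 220 CPM in CAS129 (log2 8.19, SE 0.53, adjusted p = 3.36e-05), with CAST at 400 and 358 CPM. It was also higher in CAS129 MN, at 342, 337 and 309 CPM against 7.36 to 15.6 CPM in BL6 MN. The other hybrid did not share this: the single 129CAS MN library held 3.68 CPM. Mean Slc7a11 in 129 MN was 4.05 CPM, and the single CAST MN library held 576 CPM. Gclm, a subunit of the enzyme that makes glutathione's precursor, fell by 1.79 (adjusted p = 0.00501). Mdm2, the ubiquitin ligase of p53, fell by 1.86 (adjusted p = 0.00298), whereas the p53 target Cdkn1a rose from 185 and 108 CPM to 483 and 383 CPM (log2 1.56, SE 0.34, adjusted p = 0.0115). The call of Cdkn1a was lost without CAS129 replicate 1 (adjusted p = 0.0745). Hspb1, a small heat shock protein, was at 431 and 629 CPM in BL6 and at 3.82 and 5.4 CPM in CAS129 (log2 -6.85, SE 0.45, adjusted p = 3.36e-05). CAST was lower still, at 1.06 and 0.524 CPM. Mean Hspb1 in MN was 2.1 CPM in CAS129, 465 CPM in BL6 and 0.16 CPM in 129. The single 129CAS and CAST MN libraries held 0.283 and 0.421 CPM, so BL6 alone had high counts. Of the windows of Hspb1, 51.6% also occur in another gene. The chaperone Hspa5 and the stress factor Ddit3 fell by 1.49 and 2.76, and the call of Hspa5 was lost without either CAS129 library (adjusted p up to 0.0949). Mean Mdm2 in CAS129, BL6 and 129 MN was 60.9, 399 and 605 CPM, and mean Ddit3 was 3.39, 38.5 and 32.1 CPM. The single 129CAS and CAST MN libraries held 153 and 241 CPM of Mdm2 and 4.7 and 26.2 CPM of Ddit3. Which step gave the low hybrid counts of Mdm2 and Ddit3 was not tested.

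Of 17 cell cycle genes, 3 were higher and 1 lower, with a median of 0.389. The counts of the lists in this paragraph stand beside 9.33% higher and 12.5% lower over all genes. With 1 library left out, 1 or 2 cell cycle genes were called higher, the fewest without CAS129 replicate 1. Cdkn2a, which encodes the cell cycle inhibitor p16 and the p53 activator Arf, rose from 22.8 and 21.8 CPM to 63.6 and 63 CPM, 2.84-fold (SE 0.29 on the log2 scale, adjusted p = 0.00655). Of 15 chromatin genes, 1 was called: Kdm1a, the histone demethylase LSD1, fell from 302 and 327 CPM to 95.3 and 84.4 CPM (log2 -1.81, SE 0.28, adjusted p = 0.00196). CAST was at 362 and 374 CPM, and Kdm1a was lower in CAS129 MN too (log2 -1.70, adjusted p = 1.5e-07, edgeR). Mean Kdm1a in MN was 40.2 CPM in CAS129, 131 CPM in BL6 and 137 CPM in 129. The single 129CAS and CAST MN libraries held 37 and 149 CPM. Which step gave these low hybrid counts of Kdm1a was not tested. Of 14 interferon and antigen genes, Ifitm2 rose by 2.09 (adjusted p = 0.00356) and Bst2 fell by 1.65 (adjusted p = 0.00905), with Isg15 and Psmb8 also lower on 2 hybrid counts each. Of the windows of Ifitm2, 48.5% occur in other genes, and Bst2 was not called without CAS129 replicate 2 (adjusted p = 0.0655). The 3 lower interferon calls were all lost without CAS129 replicate 2. Of 15 glycolysis genes, Pgam1 and Hk1 rose, by 1.35 and 1.30, and Ldhb and Pdk1 fell, by 1.48 and 1.12. Pdk1 lost its call in 10 alternatives, Ldhb without CAS129 replicate 2 (adjusted p = 0.0643), and Pgam1 without either CAS129 library or BL6 replicate 1 (adjusted p up to 0.111). Hk1 was lost without CAS129 replicate 1 (adjusted p = 0.0976), where neither glycolysis gene was called higher.

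Chromosome X stood below the autosomes. Its 416 genes tested had a median difference of -0.479, against -0.242 to 0.24 on the 19 autosomes, and 84 of them (20.2%) were called lower, beside 12.5% over all genes and 8.07% to 18.3% on single autosomes. Against the BL6 mean, the X median was -0.592 in CAS129 replicate 1 and -0.331 in replicate 2. The BL6 libraries themselves were at 0.205 and -0.239, so BL6 replicate 2 lay close to CAS129 replicate 2. Xist, the RNA that silences an X chromosome, was at 33.5 and 7.98 CPM in BL6 and at 18.1 and 12.7 CPM in CAS129 (adjusted p = 0.653). The sex of the lines and the number of X chromosomes are not in the labels, and their part in this shift was not tested.

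Many of the largest changes were in genes at or near 0 in a whole group. Among the 10 largest rises, Raver1, Ado, Nlrp12, Gm5814 and Foxd3 had 0 counts in both BL6 libraries. Ado, which oxidises cysteamine, was at 84.8 and 86.2 CPM in CAS129 and at 72 and 58.4 CPM in CAST, at least 742.5-fold above the BL6 floor. Raver1, a splicing cofactor, was at 162 and 119 CPM in CAS129 and at least 1242-fold higher, but 75.0% of its windows occur in Gm38431, an overlapping gene on the same strand. Klb, the co-receptor of the FGF hormones, had 1 BL6 count against 45.6 and 36.4 CPM in CAS129, a ratio of 1082 with a 95% counting interval from 193 to 42850. A gene chosen after its values were seen bears on the BL6 label: Nnt, which C57BL/6J lacks in part through a known deletion, was at 0.659 and 0.161 CPM in BL6 and at 102 and 85.6 CPM in CAS129 (log2 7.76, SE 0.59, adjusted p = 4.64e-05). In the annotation, 96.3% of the windows of Nnt also occur in an overlapping gene.

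The 10 largest falls hold genes that most cells use. Cct7, a subunit of the chaperonin that folds actin and tubulin, was at 804 and 1085 CPM in BL6 and at 0.498 and 0.208 CPM in CAS129 (log2 -11.28, SE 0.55, adjusted p = 3.33e-05). It was also near 0 in hybrid MN, at 0.485, 0.833 and 0 CPM against 298 to 352 CPM in BL6 MN. Nup107, a nuclear pore scaffold, was at 139 and 147 CPM in BL6 and at 0 and 0.208 CPM in CAS129, while CAST held 179 and 205 CPM. Rpl36a, a ribosomal protein, was at 357 and 556 CPM in BL6 and at 0.498 and 0 CPM in CAS129. Ndufa9, of respiratory complex I, and Tmsb4x, which binds actin monomers, were likewise under 0.4 CPM in both hybrid libraries. Counting all 75 genes of this kind, with a CAS129 mean under 1 CPM and a BL6 mean of at least 20 CPM, 63 were at 10 CPM or more in CAST. In the hybrid pair Cct7 had 4 counts, Rpl36a 3, and Nup107 and Ndufa9 1 each, so they were not set apart. Those called stay among the 1616 genes called lower. Which step gave these near-zero values was not tested, so a fold change such as that of Cct7 is not read here as expression. In the other direction, 24 genes were under 1 CPM in BL6 and at least 20 CPM in CAS129, and 41.7% of these shared at least 20% of their windows with another gene, against 3.31% of all genes not set apart.

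The 907 genes set apart include some of the most abundant messengers of the stem cell. In BL6 460 of them were at 10 CPM or more, 391 of which were also at 10 CPM or more in CAST, and 101 were at 100 CPM or more. They took up 5.02% and 4.89% of all BL6 counts and 4.55% and 4.58% of CAST counts. Ptma, prothymosin alpha, was at 2650 and 3544 CPM in BL6 and at 0 in CAS129, at least 11110-fold lower against a floor of 3 counts over the hybrid pair. Actg1, the cytoplasmic gamma actin, was at 1501 and 1604 CPM in BL6, and Pgk1, a glycolytic kinase, at 1056 and 2022 CPM, both at 0 in CAS129 and at 752 CPM or more in each CAST library. Hmga1 was at 1244 and 1866 CPM in BL6 and at 5.65 and 5.5 CPM in CAST, and 69.1% of its windows occur in the gene Hmga1b. Ptbp1, a splicing repressor, was at 952 and 1435 CPM, and the ribosomal protein genes Rpl11, Rpl27 and Fau were at 596 to 1660 CPM in BL6. Fau was near 0 in CAST as well, at 0.118 and 0.262 CPM. The mitochondrial gene mt-Cytb was at 1742 and 42.2 CPM in BL6 and at 0 in CAST and CAS129.

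Measured properties of these genes differed from those of the others. Their symbol in GENCODE differed from that in RefSeq for 13.5% of genes set apart and for 0.372% of genes not set apart. At least 20% of 50-base windows were shared with another gene for 10.6% against 3.31%, and at a BL6 level of at least 100 CPM for 21.8% against 5.44%. An exon overlapped another gene for 44.5% against 38.0%. Among the 460 genes at 10 CPM or more in BL6, 93.0% were at 0 in all hybrid MN libraries. Which step of the counting gave these zeros was not tested, so no fold change of such a gene is read here as expression.

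For a pair of genes set apart, a near-identical copy elsewhere in the genome carried counts in the hybrid. Both pairs were chosen after their values were seen. Some other genes set apart did not show this. For others, Ptma, Actg1 and Pgk1 among them, no copy is among the genes counted, so none could show it. For Hmga1, Fau, Hdac1, Cdk2ap1 and Hmgn2, the copy with counts in BL6 (Hmga1b, Gm9843, Gm10093, Gm12184 and Gm10282) was also at 0 in CAS129. Kpna2, importin alpha 1, which carries proteins into the nucleus and Oct4 among them, was at 441 and 334 CPM in BL6, at 436 and 511 CPM in CAST and at 0 in CAS129. Its copy Gm10184 was at 0.805 and 0.887 CPM in BL6, at 21.9 and 27.9 CPM in CAST and at 428 and 526 CPM in CAS129. The level of the copy in CAS129 is thus close to that of Kpna2 in the other lines. Kpna2 lies on chromosome 11 from 106988629 to 106999541 and Gm10184 on chromosome 17 from 89908462 to 89910449, both on the minus strand of GRCm38. The 1587 coding bases of both genes differ at 2 positions, an identity of 99.9%.

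Rpl11, a protein of the large ribosomal subunit, was at 921 and 1660 CPM in BL6, at 942 and 1364 CPM in CAST and at 0 in CAS129. Its processed pseudogene Gm5093 was at 2.05 and 3.87 CPM in BL6, at 4 and 6.29 CPM in CAST and at 1140 and 1320 CPM in CAS129. Gm5093 lies on chromosome 17 from 46439578 to 46440097 on the minus strand, and over 520 aligned bases 11 differ, an identity of 97.9%. The stretches below, read from the GENCODE M21 transcripts, show how little separates each parent from its copy. They cover coding bases 682 to 741 of Kpna2 and of Gm10184, coding bases 271 to 330 of Rpl11 and transcript bases 257 to 316 of Gm5093. Capitals mark the bases that differ within a pair.
Kpna2: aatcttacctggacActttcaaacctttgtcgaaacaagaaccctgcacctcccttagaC
Gm10184: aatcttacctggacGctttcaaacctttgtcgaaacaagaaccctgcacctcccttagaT
Rpl11: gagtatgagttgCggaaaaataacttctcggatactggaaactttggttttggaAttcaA
Gm5093: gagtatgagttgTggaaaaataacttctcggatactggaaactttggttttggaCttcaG
Both stretches of the Kpna2 pair hold 2 of 60 differing bases, and those of the Rpl11 pair hold 3 of 60.

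**Figure D4:**
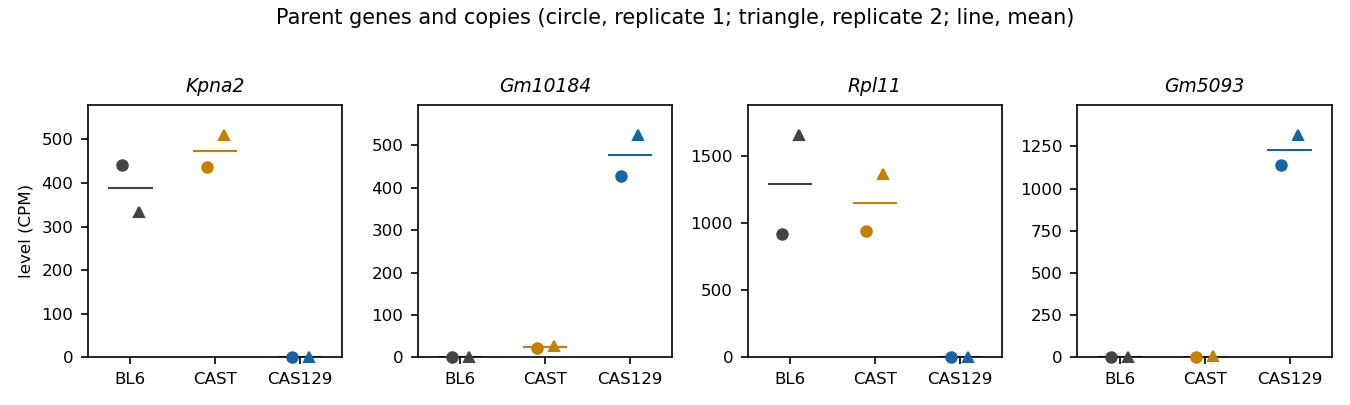
Levels (CPM, each axis from 0) of Kpna2, its copy Gm10184, Rpl11 and its copy Gm5093 in the 6 stem cell libraries; points are libraries and lines group means. The parent genes are at 0 in both CAS129 libraries, where the copies reach 428 to 1320 CPM.

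Motor neuron libraries, which share no sample with the stem cells, allowed the same genotypes to be compared in other libraries. They share the hybrid genotype and the set of deposited counts with the stem cells. Agreement may therefore hold counting differences tied to the hybrid, or stem cells left in MN, and neither part was tested. Of 1031 genes higher in CAS129 PSC and tested in MN, 598 (58.0%) were also higher in CAS129 MN and 76 (7.37%) were lower, where 32.9% of the genes not called in PSC were higher. Of 1594 genes lower in PSC, 1164 (73.0%) were also lower in MN and 102 (6.4%) were higher, where 22.8% of those not called in PSC were lower. Over all 12124 genes, 31.5% were higher and 28.1% lower in CAS129 MN. Over all 2819 genes called in PSC, in both directions and tested in MN or not, 1762 (62.5%) were called in the same direction in MN. On that measure it was 865 of 1512 (57.2%) with genes that overlap no other and share under 5% of windows.

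The marker genes of the stem cell comparison took separate courses there. Zfp42 was at 168, 153 and 56.4 CPM in CAS129 MN and from 0.132 to 0.811 CPM in BL6 MN. It was thus higher in the hybrid in both sets of libraries. Lin28a was at 118, 138 and 56.4 CPM in CAS129 MN and from 0 to 0.689 CPM in BL6 MN, the reverse of its order in PSC. The difference between the genotypes was higher in MN than in PSC by a log2 of 10.97 (adjusted p = 1.5e-07). Of 25 naive genes, 19 were higher in CAS129 MN and 1 lower. Pou5f1 ranged from 62.2 to 170 CPM in CAS129 MN and from 0.401 to 1.71 CPM in BL6 MN. It was at 0 in the 129CAS MN library. The part of any stem cells left in the MN libraries in these values was not tested. The values are therefore not read as levels of motor neurons alone. Dnmt3a was at 79.6, 90.3 and 54.3 CPM in CAS129 MN and from 99.1 to 194 CPM in BL6 MN, lower in both sets of libraries (MN log2 -0.74, adjusted p = 0.009).

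**Figure D5:**
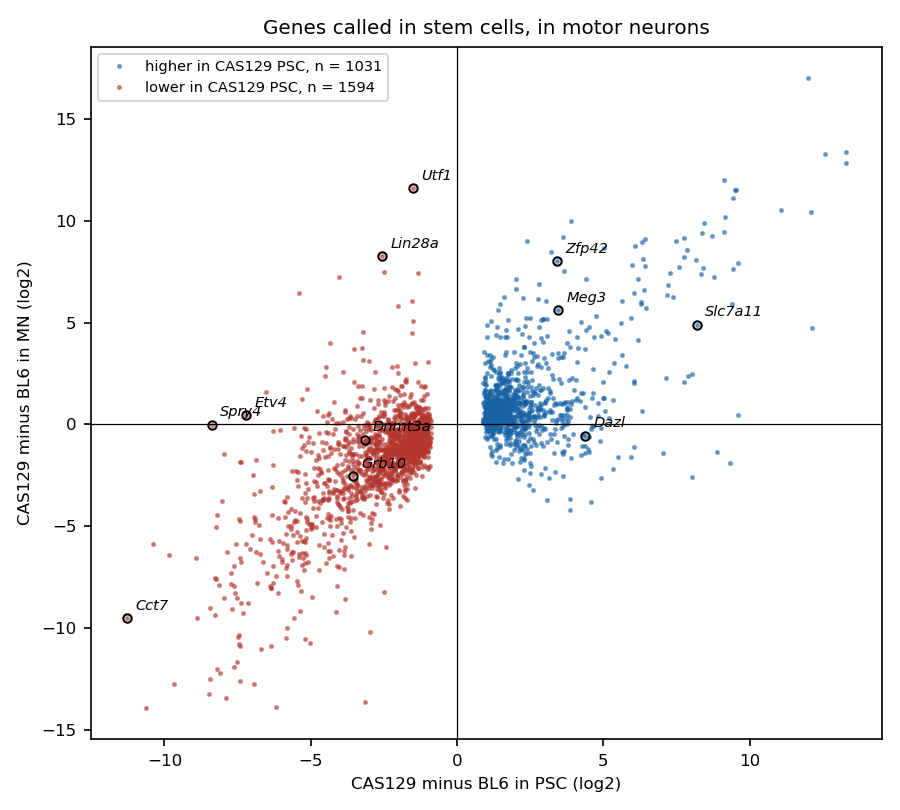
Difference between CAS129 and BL6 in motor neurons against that in stem cells (both log2), for genes called in stem cells and tested in motor neurons, 1 point per gene. Of the genes lower in PSC 73.0% are also called lower in MN, whereas Lin28a and Utf1 lie at the upper left and Spry4 and Etv4 lie near 0 on the MN axis.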

How the data were processed

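Messenger RNA was captured on oligo-dT beads and copied from random hexamers, per the labels' protocols, and no kit that marks strand is named there. The deposited values are read counts per gene, whole numbers with no normalization. Per the submitters' processing notes, STAR and GRCm38 (mm10) were used for the 20 libraries analysed here. The sources used here do not give the counting program, its annotation or its strand setting. 8 columns of counts matched no sample and were not used, and 7 samples had no matched column.

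Gene names and positions came from GENCODE M21 (27031 of 27071 identifiers matched), and current symbols from RefSeq. Genes at 1 CPM or more in at least 2 of 6 PSC libraries were tested with edgeR 4.0.16 in R 4.3.3 (TMM, glmQLFit, glmQLFTest, 2-sided, Benjamini-Hochberg). SE is the absolute log2 difference over the square root of F. MN were fitted over 14 libraries, and PSC and MN differences over 20. Groups follow the titles. Floors (3 counts over a group) and intervals cover counting error only. DESeq2 1.42.0, other scalings, filters, fits and left-out libraries were tried as alternatives. Genes named were the 3 markers and Pou5f1, all tested members of 5 pluripotency, methylation, Lin28 and FGF lists, up to 5 called members of each other list with the highest CPM, the 10 largest rises and falls among called genes at 20 CPM or more, and the 10 most abundant genes set apart; others complete a count. A named gene is not reported here. These members and the 25 lists were chosen with earlier results of these data known. The test was tested on simulated data (13795 genes, 1 false call).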

Additional observations from a re-analysis of the deposited data

Results flagged for a closer look

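The difference between CAS129 and BL6 was itself different in motor neurons and in stem cells for 11 of the genes whose motor neuron levels are given, by a test of that contrast in a fit of all 20 libraries. In MN minus PSC, on the log2 scale, it was 10.97 for Lin28a, 8.54 for Spry4, 7.80 for Etv4, 4.73 for Zfp42, 4.71 for Nup107, 3.89 for Dusp6, 3.62 for Tmsb4x, 2.55 for Dnmt3a and 2.33 for Meg3. It was -4.76 for Dazl and -3.15 for Slc7a11. Nup107 was near 0 in the hybrid in both: 0 and 0.208 CPM in CAS129 PSC and 0.324, 0.5 and 0.53 CPM in CAS129 MN. Its BL6 mean was 143 CPM in PSC and 26.9 CPM in MN. Tmsb4x was also near 0 in CAS129 PSC. The values of Nup107 and Tmsb4x are therefore not read here as expression. The part of any stem cells left in the MN libraries in the 11 differences was not tested.

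In the 7 BL6 motor neuron libraries, 1 library stood apart for Dnmt3a, at 194 CPM against a median of 118 CPM, and 1 for Etv4, at 37.8 CPM against a median of 26.5 CPM. Chance flags about 1 in 20 groups.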

How the results depend on the processing

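More genes were called lower than higher in CAS129 in every alternative except upper-quartile scaling, with 1468 higher and 1397 lower. Against 2819 genes called, 4614 were called with all 20 libraries in one fit and 1512 among genes without overlap or shared windows, an alternative chosen after seeing the data. Leaving out 1 library gave 1523 to 3058. Genes called in PSC with the same direction in MN numbered 1762, against 2721 with all 20 libraries, 865 without overlap or shared windows and 1026 to 1870 with 1 library left out. The correlation of same-numbered deviations was 0.014 for BL6 with CAS129, 0.351 for BL6 with CAST and 0.416 for CAST with CAS129, and the labels tie no numbers together, so the replicates were not treated as paired. With the replicate block, 3569 genes were called and 2106 kept their direction in MN.

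Of 108 named genes called, none changed direction in any alternative, 72 kept the call in every one that gave a value, and 12 lost it outside the left-out libraries. No such call was lost under the block. Uncalled genes changed sign with 1 library left out: without BL6 replicate 1 (range over left-out libraries) Klf4 (-1.88 to 0.62), Klf2 (-1.38 to 0.06), Tet1 (-0.71 to 0.11), Egr1 (-14.48 to 1.43) and Fos (-4.21 to 1.85), without BL6 replicate 2 Pou5f1 (-0.74 to 0.37) and Dusp9 (-1.12 to 0.16), without CAS129 replicate 1 Nodal (-0.17 to 1.15), and without CAS129 replicate 2 Tet2 (-0.09 to 0.81). The lowest value of Egr1 is a fit against 0 counts. The cause was not tested. With 1 library left in a group, it is assumed to vary like the others. At 4.5 M to 5.51 M counts, 2-fold changes were mostly not detectable.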
